A study of Mus musculus with 6 samples.

Results

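The nuclear genes for the mitochondrial respiratory chain, the ATP synthase and the mitochondrial ribosome were followed in mouse liver with and without Cyr61, after a diet that induces NASH (non-alcoholic steatohepatitis). Members were chosen by gene symbol alone, namely symbols that start with Nduf followed by a, b, c, s or v, with Uqcr, with Cox and a subunit number, with Atp5, or with Mrpl or Mrps and a number, and the 4 Sdh genes. The choice gave 169 of the 24411 symbols in the count tables. They were 36 subunits and 7 assembly factors of complex I, 4 subunits of complex II and 8 of complex III. Complex IV had 20 genes and complex V 17. By symbol alone, 48 Mrpl genes were counted with the large mitoribosomal subunit and 29 Mrps genes with the small. Ndufa4 and its paralog Ndufa4l2 were counted with complex IV, where the Ndufa4 protein resides. Atp5sl, counted with complex V by its symbol, is named Dmac2 in GENCODE and is known as a complex I assembly factor. Cyc1, a complex III subunit, and mitoribosomal proteins without an Mrp name fall outside this choice. A filter on low counts kept 163 of the 169 members among 13563 tested genes.

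Bulk RNA was sequenced from the livers of male mice aged 24 weeks that had eaten the NASH diet for 12 weeks. The genotype label was Control for 3 libraries and Cyr61 KO for another 3, with the strain given as Cyr61fl/fl for all 6. The labels name no Cre driver and no deleted cell type, and they leave unsaid whether the libraries are from different mice, so that p-values reflect library-to-library spread, which may be technical. Livers were flash frozen and libraries were made with a directional kit. Cyr61 itself, which encodes a secreted matricellular protein, had levels of 15.6, 32.4 and 27.8 CPM (counts scaled to library size with TMM normalisation) in the controls, replicates 1 to 3 in that order, and 3.77, 2.66 and 3.14 CPM in the Cyr61 KO libraries (log2 fold change -2.98, edgeR adjusted p = 0.0103). All values by library below follow the same order. Without Cyr61 KO replicate 1 the adjusted p was 0.0615.

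Gene counts ran from 21032878 to 40377742 per library. Control replicate 2 stood apart: reads counted in genes made up 50.9% of its total, compared with 82.8% to 87.6% elsewhere, and reads that mapped to several places 19.4%, compared with 3.74% to 5.73%. All 8 hepatocyte markers were measured. Their summed level was 41300 CPM in control replicate 2, 94817 and 104594 CPM in the other controls and 108323 to 133742 CPM in knockouts. The 8 macrophage markers summed to 580 to 990 CPM in controls and 133 to 398 CPM in knockouts, and the 8 stellate cell and fibroblast markers to 805 to 1433 CPM and 296 to 502 CPM. Lyz2, Trem2, Gpnmb and Ccr2 were lower in every knockout than in every control, whereas Adgre1, Cd68, Itgam and Csf1r overlapped. Adgre1 reached 50.8 CPM in Cyr61 KO replicate 3, above every control. Of the stellate cell and fibroblast markers only Lrat overlapped, at 20.3 to 23.4 CPM in controls and 14.6 to 29.1 CPM in knockouts. In bulk tissue fewer cells of a type and less RNA per cell cannot be told apart.

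The respiratory chain passes electrons from NADH through complex I, or from succinate through complex II, to ubiquinone, and on through complex III, cytochrome c and complex IV to oxygen. The proton gradient built by complexes I, III and IV drives complex V, the ATP synthase. Complex II is the succinate dehydrogenase of the citric acid cycle and is encoded wholly in the nucleus, whereas the other complexes also hold subunits encoded by mitochondrial DNA. Those subunits are made inside the organelle by the mitochondrial ribosome, whose proteins are all imported. Hepatocytes are rich in mitochondria, and altered respiration is a known feature of fatty liver disease. The tables held 0 mitochondrially encoded genes, so every value below is for a nuclear gene.

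Promoters of such genes are known to carry sites for the transcription factors NRF1, GABPA (of the ETS family) and YY1. RefSeq promoter windows on GRCm38.p6 were matched to 144 of the 169 members, as 156 windows of 250 bases before a gene start. The stretches below are those nearest the start that lie outside every annotated exon. They are shown for Sdha and Sdhd, the complex II subunits with the highest fold changes, for Ndufb4, the complex I subunit with the lowest, and for Cox7a2, a complex IV subunit lower in the knockouts. All are on the minus strand and are written 5′ to 3′, with matches to the searched letters in capitals.
Sdha, chr13:74350281-74350308: ggaggggcgtgttGCGCAGGCGCagaat
Sdhd, chr9:50603850-50603909: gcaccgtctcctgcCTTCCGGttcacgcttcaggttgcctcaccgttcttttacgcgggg
Ndufb4, chr16:37654454-37654618: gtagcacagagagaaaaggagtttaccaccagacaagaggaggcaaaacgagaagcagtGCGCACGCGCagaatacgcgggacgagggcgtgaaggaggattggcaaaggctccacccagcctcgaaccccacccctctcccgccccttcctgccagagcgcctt
Cox7a2, chr9:79759879-79760103: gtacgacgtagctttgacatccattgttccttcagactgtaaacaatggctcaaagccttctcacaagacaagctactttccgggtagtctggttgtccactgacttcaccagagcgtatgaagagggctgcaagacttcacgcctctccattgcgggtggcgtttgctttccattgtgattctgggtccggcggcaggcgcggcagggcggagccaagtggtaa
Capitals mark the NRF1 pattern, GCGCA then any base then GCGC, in Sdha and Ndufb4 and the reverse complement of CCGGAAG (GABPA) in Sdhd. The YY1 pattern searched, AAGATGGCG, is in none of the 4 stretches, and Cox7a2 holds none of the 3 patterns. In their full windows Sdha and Ndufb4 each hold 3 matches and Sdhd holds 2. On both strands the NRF1 letters were found in 16% of the member windows, against 3.74% of all 32851 windows and 7.39% of the 13009 windows of other tested genes. The GABPA letters were in 19.2%, 6.91% and 12.4% of the same sets, and the YY1 letters in 2.56%, 0.606% and 1.09%. The members with and without the NRF1 letters had medians of the same sign: the median log2 fold change was -0.14 over the 23 tested members with them and -0.23 over the 118 without. A match is a run of letters and not a measured site.

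None of the 163 tested members passed edgeR's quasi-likelihood test in either direction at an adjusted p below 0.05, where 1.07% of all tested genes were called higher and 2.37% lower in the knockouts, 3.44% in all. At an unadjusted p below 0.05, 13 tested members were lower (7.98%) and 1 was higher (0.613%), beside 16.1% and 11.3% of all tested genes. DESeq2, a second count model, called Sdha higher (adjusted p = 0.0473) and Mrpl54, Cox7a2 and Mrps33 lower (0.00654, 0.0151 and 0.0273). DESeq2 called 6.53% of all tested genes higher and 10.2% lower, so the members' shares of 0.613% and 1.84% lay under that background as well. The 2 groups of libraries did not overlap for 22 members lower in the knockouts (13.5%) and for 7 higher (4.29%), against 17.9% and 17.3% of all tested genes. In simulated counts of the same design, 200 of 13563 genes were changed. There edgeR recovered 0.8% of genes changed 1.5-fold, 12.8% of those changed 2-fold and 70.4% of those changed 4-fold. More genes were called in the real data, 467, and the adjusted p depends on how many genes change. These shares therefore do not give the detection rate among the members. A missing call does not show that a member was unchanged.

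Although single genes did not pass, fold changes were mostly negative. Of the 163 tested members 118, or 72.4%, had a negative log2 fold change, compared with 51.6% of all tested genes, and the median was -0.21 against -0.03. The complexes were not alike. With all 6 libraries complex IV had the lowest median, -0.45, with 14 of 15 tested members negative. It was -0.25 without control replicate 2, equal to the large mitoribosomal subunit then, and -0.25 without Cyr61 KO replicate 3. Complex III was at -0.37 (5 of 8 negative), complex I at -0.24 (27 of 35), and both mitoribosomal subunits at -0.20 (35 of 48 for the large and 22 of 29 for the small). The complex I assembly factors were at -0.16 (4 of 7) and complex V at -0.02 (11 of 17), or -0.11 with Atp5sl moved to the assembly factors, whose median was then -0.07. Single libraries set the size of these medians. When each library was left out in turn, the median ran from -0.63 to -0.12 in complex III, from -0.54 to -0.09 in complex I, from -0.34 to -0.10 in the large mitoribosomal subunit and from -0.32 to -0.03 in the small, with the lowest value of each without Cyr61 KO replicate 1. Complex II had a positive median, 0.25, with 0 of 4 negative, although with library totals as the only scaling its median was 0.01 and Sdhb was at -0.24. That scaling moved the median of all tested genes to -0.30.

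**Figure D1:**
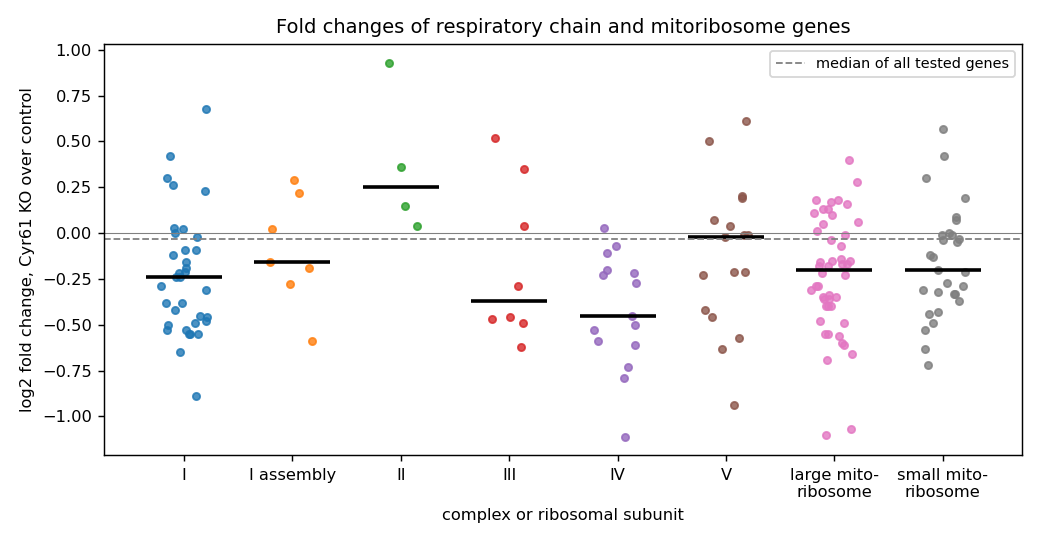
Log2 fold change of Cyr61 KO over control (y axis) for the 163 tested members, each a point, by complex or mitoribosomal subunit (x axis). Thick bars are class medians, from -0.45 in complex IV to 0.25 in complex II, and the dashed line is the median of all tested genes at -0.03.

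The knockouts differed more among themselves than the group means did. For each library the median over class members of log2(CPM + 0.5), minus each gene's mean over the 6 libraries, was taken. Over the 163 tested members it was 0.04, 0.03 and 0.27 in the controls and 0.31, -0.17 and -0.44 in the knockouts. Cyr61 KO replicate 1 was thus above every control, and replicates 2 and 3 were below every control. The same order held among the knockouts in all 8 classes, and the range over the knockouts was 0.49 to 1.03 by class. Of the 163 tested members 152, or 93.3%, were higher in Cyr61 KO replicate 1 than in replicate 3, whereas 43.6% of all tested genes were. Other lists had the same order: 93.6% of 78 cytoplasmic ribosomal protein genes, 100% of 18 import genes and 77.5% of the 289 other tested genes of up to 776 nt were higher in replicate 1 than in replicate 3. By length, 94.5% of members up to 776 nt were, 90.7% of members from there to 1424 nt and 94.4% of longer members. Among other tested genes the share was 73.3% in the middle of these length ranges and 39.8% in the longest. For all tested genes the library medians lay between -0.03 and 0.01. Among controls replicate 2 was the lowest for complex II, at -0.68, and the highest for complex IV, at 0.43.

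**Figure D2:**
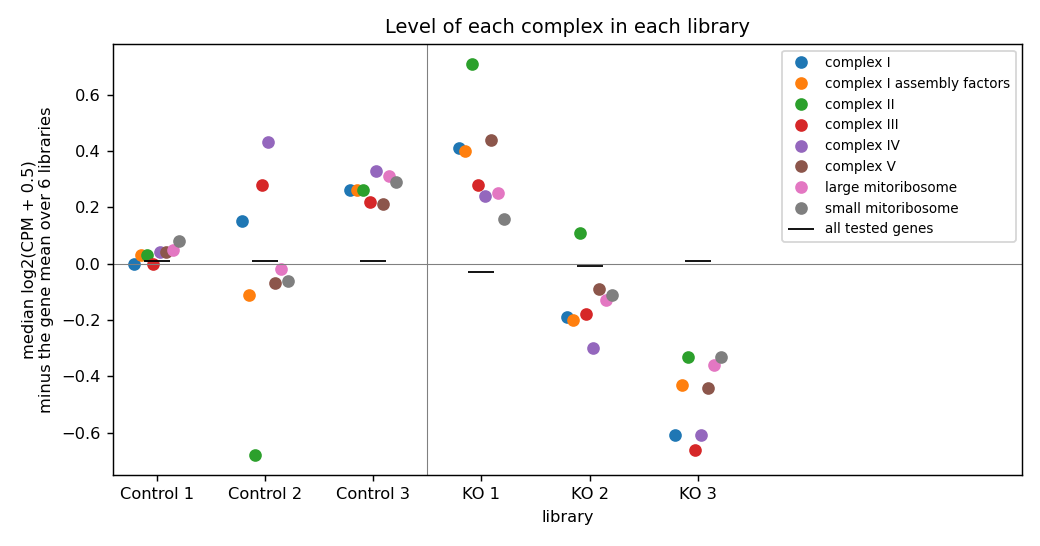
Median over the tested members of each class of log2(CPM + 0.5) minus the gene mean over 6 libraries (y axis), for each library (x axis). Each class is lowest among the knockouts in KO 3 and highest in KO 1, and complex II (green) lies at -0.68 in control 2 while all tested genes (black dashes) stay near 0.

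Marker levels were set beside this spread. In the knockouts the hepatocyte markers summed to 133742, 113464 and 108323 CPM, in the same order as the respiratory genes. Singly, Apoa1, Serpina1a and Fgb had that order. Alb, at 90103, 77118 and 81391 CPM, did not, and Hnf4a, Cps1, Ttr and Cyp2e1 were highest in Cyr61 KO replicate 2. The macrophage markers summed to 183, 133 and 398 CPM. The stellate markers were at 296, 386 and 502 CPM and the endothelial markers at 245, 277 and 354 CPM, the reverse order. Of the 8 markers in each list, edgeR called 1 hepatocyte marker and 2 endothelial markers higher, and 3 macrophage and 4 stellate and fibroblast markers lower. The 8 cholangiocyte markers summed to 275, 1377 and 237 CPM in controls and 80.8 to 159 CPM in knockouts, and the 8 lymphocyte markers to 11.7, 76.8 and 7.49 CPM and 3.68 to 5.69 CPM. The gut and pancreas markers were at 1172 CPM in control replicate 2, of which Dmbt1, a mucosal epithelial gene, made up 1151 CPM, and at 7.87 to 12.6 CPM elsewhere. The part of cell composition in the members' values was not tested.

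Complex I takes electrons from NADH at a core of flavin and iron-sulfur subunits, around which accessory subunits are assembled. Of its 35 tested subunits 2 were higher (5.71%) and 3 lower (8.57%) in every knockout than in every control, under the 17.3% and 17.9% of all tested genes. Ndufs1, the large iron-sulfur subunit, was at 126, 66.9 and 130 CPM in controls and at 207, 171 and 140 CPM in knockouts. Every knockout was above every control, by little in Cyr61 KO replicate 3 (log2 fold change 0.68 ± 0.31 (SE), edgeR adjusted p = 0.191). Ndufv1, the flavin-bearing subunit, had a log2 fold change of 0.42, with overlapping groups. Ndufs4, an accessory subunit whose loss in mice causes a Leigh-like brain disease, was at 87.8, 83.0 and 102 CPM in the controls. In the knockouts it was at 76.4, 50.5 and 46.7 CPM, below all controls (-0.65 ± 0.25, edgeR adjusted p = 0.133). Ndufb4, an accessory subunit of the membrane arm, was at 24.7, 49.5 and 22.9 CPM in controls and at 12.4, 22.6 and 17.4 CPM in knockouts. The groups nearly met, and control replicate 2 was far above the rest (-0.89 ± 0.35, edgeR adjusted p = 0.143). Without control replicate 2 the log2 fold change of Ndufb4 was -0.42.

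The complex I subunits with the highest expression per transcript length were Ndufb9, at a mean of 294 RPKM over the libraries, and Ndufa2, at 204 RPKM. Ndufb9 was at 204, 205 and 254 CPM in controls and at 294, 174 and 112 CPM in the knockouts, so the knockouts surrounded the controls (log2 fold change -0.19). Ndufa2 spread likewise, from 106 to 158 CPM in the controls and from 53.3 to 165 CPM in the knockouts (-0.53, edgeR adjusted p = 0.427). Ndufs5, also a complex I subunit, was listed at 0 in all libraries, for either strand and without regard to strand. The lowest tested complex I subunit was at 19.7 RPKM. Reads that map to several places were not counted in genes, so genes with near-identical copies can be undercounted. Whether this applies to Ndufs5 or Ndufb4 was not tested.

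Assembly factors build complex I and are not part of the finished enzyme. Ndufaf2, a chaperone that stays with a late assembly intermediate, was at 11.7, 13.0 and 11.3 CPM in controls and at 8.44, 8.02 and 7.49 CPM in knockouts. The groups did not overlap, and both were tight (-0.59 ± 0.21, edgeR adjusted p = 0.125). Ndufaf1, which acts on the membrane arm, was at 24.2, 16.8 and 30.9 CPM against 34.3, 30 and 23.4 CPM, with overlap (0.29, edgeR adjusted p = 0.505). These were the assembly factors with the smallest p and also the highest RPKM.

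Complex II, as the enzyme shared with the citric acid cycle, was the class whose 4 fold changes were all positive with TMM scaling. Sdha, the flavoprotein that oxidises succinate, had control levels of 449, 214 and 519 CPM and knockout levels of 888, 754 and 604 CPM. All knockouts lay above all controls, with the lowest control in replicate 2. The means were 394 ± 160.0 and 749 ± 142 CPM (SD, n = 3). The fold was 1.90, or 0.93 ± 0.37 as log2 (edgeR adjusted p = 0.156). It was 0.66 without control replicate 2. The membrane anchor Sdhd was at 192, 118 and 229 CPM against 289, 237 and 165 CPM (0.36, edgeR adjusted p = 0.496), so Cyr61 KO replicate 3 fell within the control range. The iron-sulfur subunit Sdhb was at 264, 195 and 311 CPM against 423, 219 and 148 CPM, and the second anchor Sdhc at 264, 161 and 304 CPM against 384, 237 and 186 CPM. Their log2 fold changes were 0.04 and 0.15, well within the spread between replicates. The positive median of the class, 0.25, became 0.05 when control replicate 2 was left out and -0.01 when Cyr61 KO replicate 1 was.

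Complex III hands electrons from ubiquinol to cytochrome c. Uqcrc2, a core protein of its matrix side, was at 202, 146 and 200 CPM in controls and at 252, 294 and 242 CPM in knockouts. The groups did not overlap (log2 fold change 0.52 ± 0.25, edgeR adjusted p = 0.208). Uqcrc1, its partner core protein, had a log2 fold change of 0.35 and Uqcrfs1, the Rieske iron-sulfur protein, of 0.04. The small subunits were on the other side of 0. Uqcr10 was at 120.0, 154 and 123 CPM against 120.0, 80.6 and 56.8 CPM (-0.62, edgeR adjusted p = 0.209). Uqcrh, the hinge protein near cytochrome c and the highest of the class at 334 RPKM, was at -0.49, Uqcr11 at -0.46, Uqcrq at -0.47 and Uqcrb at -0.29.

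Complex IV reduces oxygen, and its nuclear subunits stabilise and regulate a catalytic core that the mitochondria encode. Cox7a2, the subunit 7a form found outside muscle, was at 139, 185 and 163 CPM in controls and at 109, 94.1 and 78.7 CPM in knockouts. Every knockout was below every control, with means of 162 ± 23.2 and 93.9 ± 15.1 CPM (SD, n = 3). Its log2 fold change was -0.79 ± 0.24 (edgeR adjusted p = 0.0875). It stayed between -0.90 and -0.66 when any library was left out. Ndufa4 was at 298, 338 and 354 CPM against 288, 220.0 and 176 CPM, also without overlap although Cyr61 KO replicate 1 came close to a control (-0.53, edgeR adjusted p = 0.233). Cox7b was the only other tested complex IV member whose groups did not overlap (-0.45). These 3 of 15 tested members (20%) were near the 17.9% of all tested genes. Cox4i1, a regulatory subunit and the highest of the class at 649 RPKM, was at 527, 445 and 597 CPM against 677, 387 and 306 CPM. The knockouts again surrounded the controls (-0.20, edgeR adjusted p = 0.736). Cox6a1, at 596 RPKM, behaved the same way, with 331, 314 and 416 CPM against 525, 235 and 220.0 CPM. Cox5a alone of the 15 tested members had a positive log2 fold change, 0.03.

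Several complex IV subunits exist in paired forms, a widespread form and a form of muscle, brown fat, lung or testis. The liver libraries expressed the widespread forms. As a share of the summed RPKM of each pair, Cox4i2 made up 0.00912% to 0.152% beside Cox4i1, Cox6a2 at most 0.349% beside Cox6a1, Cox8b at most 0.120% beside Cox8a, and Cox6b2 0.0207% to 0.834% beside Cox6b1. The muscle form Cox7a1 made up 0.888% to 3.49% beside Cox7a2, and Ndufa4l2, a form known to be induced by hypoxia, 0.349% to 0.642% beside Ndufa4. Cox7b2 and Cox8c had 0 counts in the strand used, which allows up to 3 counts, or 0.0841 to 0.106 CPM, in each library, for counting error only. Markers of muscle and brown fat summed to 0.0594 to 0.964 CPM, and Ucp1, the uncoupling protein of brown fat, was at 0 in all libraries. The lowest fold change of the class, that of Cox6b2 at -1.11, rested on 1 to 55 counts per library and was -0.08 without control replicate 2. Cox7a2l, a factor of respiratory supercomplexes rather than a form of subunit 7a in the strict sense, was at 115, 98.2 and 150.0 CPM against 149, 83.1 and 69.4 CPM (-0.27, edgeR adjusted p = 0.608).

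Complex V makes ATP with a catalytic head driven by a rotor in the membrane. The catalytic head is formed by the products of Atp5b and Atp5a1. Atp5b, at 726 RPKM the highest of all members, was at 1362, 713 and 1389 CPM in controls and at 2067, 1552 and 1263 CPM in the knockouts (log2 fold change 0.50, edgeR adjusted p = 0.409). Atp5a1 was at 1085, 550.0 and 1195 CPM against 1944, 1350.0 and 1015 CPM (0.61, edgeR adjusted p = 0.348). For both the groups overlapped through Cyr61 KO replicate 3, and control replicate 2 was the lowest library. Atp5e, the smallest subunit of the central stalk, was at 216, 344 and 354 CPM against 309, 98.4 and 67.8 CPM, the lowest log2 fold change of the complex at -0.94 ± 0.53 (edgeR adjusted p = 0.275). Cyr61 KO replicate 1 lay among the controls and the other knockouts lay far below them. Atp5s, coupling factor B, was at 6.35, 6.40 and 8.48 CPM against 4.66, 4.58 and 4.46 CPM, the only complex V gene whose groups did not overlap (-0.63, edgeR adjusted p = 0.167). This was 5.88% of the 17 tested, beside 17.9% of all tested genes. Atp5k, a dimer subunit, was at -0.57 with overlap.

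The rotor ring of complex V is built from a single mature protein encoded by Atp5g1, Atp5g2 and Atp5g3. Atp5g3 was the main source. Beside it Atp5g1 made up 8.28% to 10.7% of the summed RPKM of the pair and Atp5g2 4.92% to 17.6%. These shares rest on the transcript lengths used, 2655 nt for Atp5g1, 731 nt for Atp5g2 and 718 nt for Atp5g3. Without regard to length, the means over the libraries were 177 CPM for Atp5g1, 57.4 CPM for Atp5g2 and 462 CPM for Atp5g3. Atp5g3 was at 449, 379 and 562 CPM against 709, 384 and 288 CPM, a log2 fold change of -0.01, and Atp5g1 at -0.02. Atp5g2 did not follow the order of Atp5g3 and Atp5g1 among the knockouts. It was at 59.6, 53.5 and 56.3 CPM in the controls and 37.3, 74.6 and 62.9 CPM in the knockouts (0.04). Its lowest library was thus Cyr61 KO replicate 1, where Atp5g3 was highest.

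The mitoribosome makes the mitochondrially encoded subunits of complexes I, III, IV and V. Mrpl54, a protein of the large subunit, was at 28.1, 49.1 and 32.5 CPM in controls and at 21, 14.5 and 15.5 CPM in knockouts. All knockouts were below all controls, with control replicate 2 the highest library. The means were 36.6 ± 11.1 and 17.0 ± 3.49 CPM (SD, n = 3), or -1.10 ± 0.27 as log2 fold (edgeR adjusted p = 0.0573). This was the smallest p among the members, and the fold change was -0.80 without control replicate 2. Mrps33, of the small subunit, was at 20.1, 16.4 and 19.3 CPM against 12.7, 10.6 and 10.7 CPM, again without overlap (-0.72 ± 0.20, edgeR adjusted p = 0.0782). Mrpl20 was at 36.6, 45.5 and 36.7 CPM against 26.3, 29.9 and 24.4 CPM (-0.56, edgeR adjusted p = 0.116). Mrps18c, at 30.7, 34.3 and 38.1 CPM against 29.2, 19.9 and 17.6 CPM, also had no overlap (-0.63, edgeR adjusted p = 0.134).

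Abundant mitoribosomal genes showed the spread between knockouts seen in the respiratory complexes. Mrpl12, a large-subunit protein also known to bind the mitochondrial RNA polymerase, was at 135, 112 and 182 CPM against 200, 105 and 84.9 CPM (-0.14). Mrpl52, the highest of the large subunit at 137 RPKM, was at 55.0, 71.9 and 79.6 CPM against 77.0, 31.7 and 27.4 CPM (-0.60, edgeR adjusted p = 0.333). In the small subunit Mrps21, at 102 RPKM, had a log2 fold change of -0.49 and Mrps34 of -0.04. A few members were higher in all knockouts than in all controls: Mrpl39 at 0.40, Mrps2 at 0.42 and Mrpl4. They were 4.17% of the tested large-subunit and 3.45% of the tested small-subunit genes, below the 17.3% of all tested genes. In the other direction 9 large-subunit (18.8%) and 5 small-subunit genes (17.2%) were lower in all knockouts, near the 17.9% of all tested genes.

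**Figure D3:**
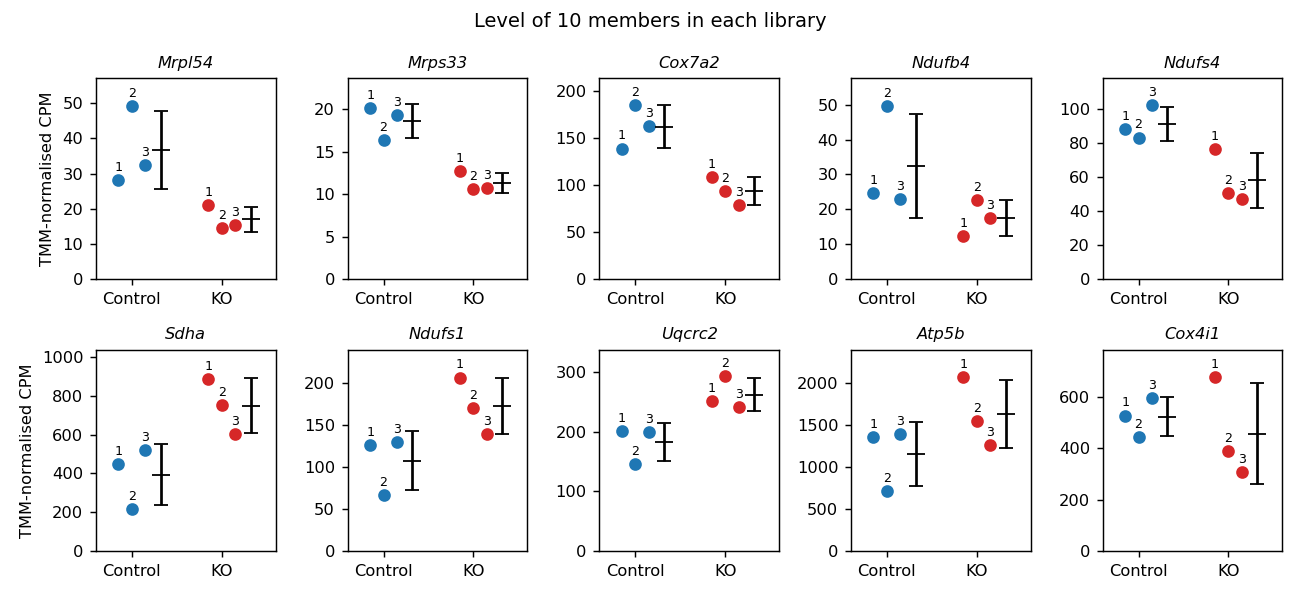
TMM-normalised CPM (y axis, from 0) of 10 members in each library, by group (x axis); numbers are replicates and bars the mean ± SD of 3 libraries. Mrpl54, Mrps33, Cox7a2, Ndufb4 and Ndufs4 are lower and Sdha, Ndufs1 and Uqcrc2 higher in every KO than in every control library, whereas Atp5b and Cox4i1 overlap, with KO 1 highest.

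Because whole classes varied together between libraries, classes were also compared within each library. Of the 28 class pairs 15 overlapped between the groups and 13 did not, among them pairs separated by little. Every pair with complex II, a class of 4 genes, was among the 13. Pairs share classes, so the 13 are not separate results. Complex II minus the small mitoribosomal subunit, for example, was -0.04, -0.61 and -0.03 in controls and 0.55, 0.22 and 0.01 in knockouts. The complex II value minus the complex IV value was -0.01, -1.10 and -0.07 in the controls and 0.47, 0.41 and 0.29 in the knockouts on the log2 scale. Every knockout was above every control, although control replicate 2 lay far below the other controls. Leaving that replicate out could not make the groups overlap, so it is no check. Complex II minus complex III was 0.03, -0.95 and 0.04 against 0.43, 0.28 and 0.34, also without overlap. Complex I minus complex IV was -0.04, -0.28 and -0.08 against 0.17, 0.11 and 0.00, and complex IV minus complex V was 0.00, 0.50 and 0.13 against -0.21, -0.22 and -0.18. The large and the small mitoribosomal subunits differed by -0.03 to 0.09 in every library, and their groups overlapped. These differences are descriptions: 3 libraries against 3 cannot give a 2-sided exact permutation p below 0.1.

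Transcript length moved with the fold change, and the classes differ in length. Median lengths were 618 nt in complex IV, 861 nt in complex I, 931 nt in complex V, 955 nt in complex III, 1197 and 1284 nt in the small and large mitoribosomal subunits and 2066 nt in complex II. Across the 163 tested members log2 length correlated with log2 fold change at a Pearson r of 0.48 and a Spearman rho of 0.54. Across 12506 other tested genes the values were 0.24 and 0.28. These are correlations across genes that share 6 libraries, and genes are not independent replicates. In members of up to 776 nt, the shortest of 3 length classes, the median log2 fold change was -0.48 with 51 of 55 negative, and in 289 other genes of that length it was -0.74 with 91.3% negative. In the middle class, up to 1424 nt, it was -0.20 for members and -0.34 for 1338 other genes. In the longest class it was -0.01 for members and 0.04 for 10093 other genes. By these medians short members were less far below 0 than other short genes. Without control replicate 2 the shortest class was at -0.28 for members and -0.54 for other genes, and the Pearson r was 0.35 across members and 0.29 across other genes. The shortest members were at -0.73 without Cyr61 KO replicate 1 and at -0.25 without Cyr61 KO replicate 3. The part of length or RNA quality in the differences between complexes was not tested.

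**Figure D4:**
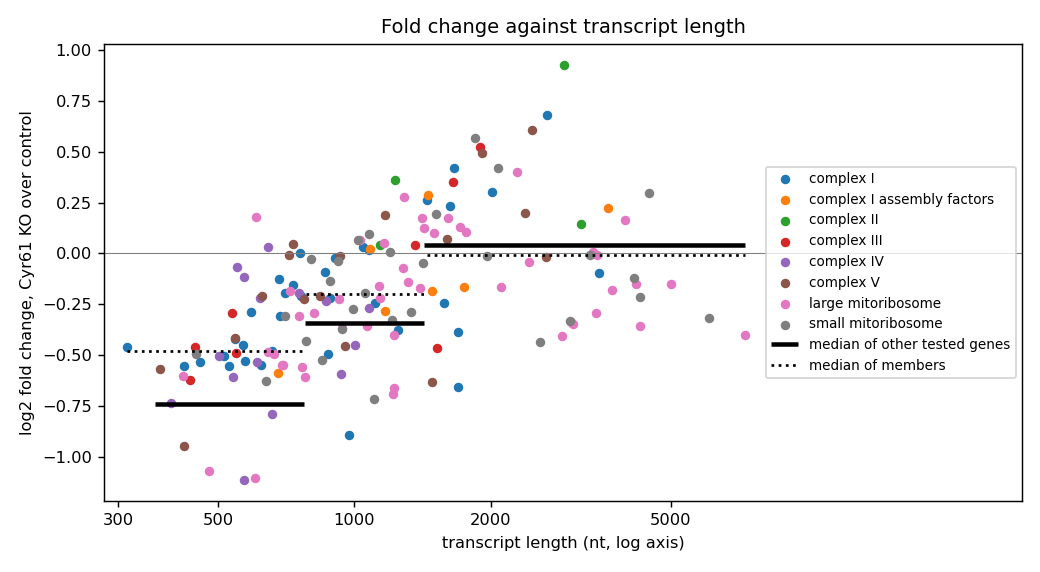
Log2 fold change of Cyr61 KO over control (y axis) against transcript length in nt (x axis, log scale) for 163 tested members coloured by class. Solid bars are medians of other tested genes and dotted bars medians of members in the same length range, from -0.74 and -0.48 in the shortest length class to 0.04 and -0.01 in the longest.

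Genes that build or regulate these complexes were read from further lists. Of 33 tested assembly factors for complexes II to V, edgeR called 0 higher and 0 lower. At an unadjusted p below 0.05, 3 were higher (9.09%) and 6 lower (18.2%), beside 11.3% and 16.1% of all tested genes. The factors had a median log2 fold change of 0.11. Those with the lowest values included Pet100, a complex IV assembly factor, at 14.9, 27.7 and 22.9 CPM against 12.7, 8.05 and 6.95 CPM (-1.24, edgeR adjusted p = 0.0636), and Uqcc2, of complex III assembly, at -1.02 (adjusted p = 0.0778). No gene was called among 7 other complex I assembly factors (median 0.22), 5 genes around cytochrome c (0.29), 12 translation factors (0.06), 15 mitoribosome assembly factors (0.10), 17 mitochondrial tRNA synthetases (0.33) and 13 genes of mitochondrial DNA upkeep and transcription (0.23). At an unadjusted p below 0.05 these 6 lists held 0, 0, 1, 1, 3 and 2 higher genes and 0, 1, 0, 0, 0 and 0 lower. The higher shares were 0%, 0%, 8.33%, 6.67%, 17.6% and 15.4%, beside 11.3% of all tested genes. The 1 lower gene was 20% of its list, beside 16.1% of all tested genes.

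Of 18 mitochondrial import genes edgeR called 0 higher and 1 lower, beside 1.07% and 2.37% of all tested genes, and 14 of the 18 were negative (median -0.19). Timm8b, a small chaperone of the intermembrane space, was at 39.7, 41.4 and 38.2 CPM in controls and at 25.5, 20.4 and 18.3 CPM in knockouts. Timm8b fell by 0.89 ± 0.20 as log2 fold (edgeR adjusted p = 0.0484). The call ended when any library was left out (adjusted p 0.0661 to 0.224). Among 9 tested regulators of mitochondrial biogenesis edgeR called 0, with 3 higher (33.3%) at an unadjusted p below 0.05, beside 11.3% of all tested genes. The median was 0.16. Ppargc1a, the coactivator PGC-1alpha, was at 4.02, 3.86 and 3.93 CPM against 9.24, 9.65 and 5.55 CPM (1.05, edgeR adjusted p = 0.0801), and Gabpa was at 38.7, 24.0 and 39.6 CPM against 46.8, 61.9 and 53.9 CPM (0.67, edgeR adjusted p = 0.129). Neither overlapped between the groups, as 17.3% of all tested genes did not in that direction. Nrip1, the third of the 3, had the highest fold change of the list (1.37, edgeR adjusted p = 0.133). It was at 5.28, 1.72 and 2.63 CPM against 4.01, 8.73 and 12.3 CPM, with overlap. Nrf1 was at 0.16.

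The citric acid cycle list, which shares complex II's step with the chain but holds none of its genes, had 0 of 15 negative fold changes and a median of 0.39. Without control replicate 2 the median was 0.23 with 3 of 15 negative. By library the list was at 0.00, -0.71 and 0.03 in controls and 0.29, 0.28 and 0.01 in knockouts, lowest where the hepatocyte markers were lowest. edgeR called none of them, with 3 higher at an unadjusted p below 0.05 (20%, beside 11.3% of all tested genes). Pdha1, of the pyruvate dehydrogenase complex, was at 117, 77.2 and 103 CPM against 182, 199 and 166 CPM (0.88, edgeR adjusted p = 0.0766), and citrate synthase, Cs, at 148, 120.0 and 140.0 CPM against 216, 249 and 210.0 CPM (0.73, edgeR adjusted p = 0.094). Both were separated between groups, as 17.3% of all tested genes were in that direction. Cytoplasmic ribosomal protein genes, which are short, were on the other side. Of 78 tested, 76 were negative with a median of -0.87, 52 were lower at an unadjusted p below 0.05 (66.7%, against 16.1% of all tested genes), and edgeR called 0 higher and 2 lower (2.56%, near the 2.37% of all tested genes). The 2 were Rps24, which fell by 1.66, and Rps15a, which fell by 1.27, as log2 fold (edgeR adjusted p = 0.0416 and 0.0397). Neither passed without control replicate 1 or 2 or without any Cyr61 KO library (adjusted p 0.0549 to 0.202).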

How the data were processed

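RNA was measured in 6 liver libraries, 3 of each genotype, grouped by the genotype label. The authors deposited, for each library, raw read counts of 24411 gene symbols. The submitters' processing notes list Trimmomatic 0.38, STAR 2.6.1a and the builds hg38 and mm10; the annotation release is not given in the sources used here. The counts of the strand that fits the directional kit were taken, and reads outside genes or mapped to several places stayed out of library sizes.

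edgeR 4.0.16 (R 4.3.3) was fitted to all 13563 genes that passed filterByExpr (minimum count 10, minimum total 15), with TMM scaling, a group term and the quasi-likelihood F test, two-sided. Benjamini-Hochberg adjustment ran over all 13563 genes, and an adjusted p below 0.05 was called. Fold changes are log2 of Cyr61 KO over control, with standard errors from the F statistic. RPKM and lengths used GENCODE M21 transcripts on GRCm38, the assembly of mm10. Library values used log2(CPM + 0.5). The members and gene lists were chosen with earlier results of these data known. Named genes are, in each class, the 2 with the smallest p and the 2 with the highest RPKM, tissue isoforms and called genes of the lists. Other genes named were chosen after their values were seen, and some genes are not reported here.

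The test was run on simulated data (5 simulations, 200 changed genes of 13563) for the same comparison. Each pair of libraries within a group differed beyond sampling noise (chi-square over degrees of freedom at least 54.9). Alternatives were DESeq2 1.42.0, DESeq2 size factors, library totals, other low-count filters, unstranded counts, a replicate block and leaving out each library. Another class for Atp5sl was added after seeing the data.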

Additional observations from a re-analysis of the deposited data

How the results depend on the processing

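With edgeR 0 members were called higher or lower under every scaling and strand setting, without any single library and with the stricter filter on CPM. DESeq2 called 1 higher and 3 lower, and edgeR without the low-count filter called 1 lower, Mrpl54. The number of all genes called was 50 with library totals, 2273 by DESeq2, 944 without the filter and 7 to 878 when a library was left out, against 467. With library totals the medians of the large and small mitoribosomal subunits were -0.48 and -0.47, where the median of all genes was -0.30. Leaving out single libraries gave medians of -0.51 to 0.06 for complex I assembly factors and -0.37 to 0.13 for complex V, the lowest without Cyr61 KO replicate 1 and the highest without Cyr61 KO replicate 3. The cause was not tested.

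Fold changes near 0 changed sign. With a library left out, the log2 fold change ranged from -0.62 to 0.09 for Ndufb9, -0.47 to 0.34 for Sdhb, -0.59 to 0.04 for Cox4i1, -0.63 to 0.12 for Cox6a1, -0.46 to 0.25 for Atp5g3, -0.59 to 0.10 for Mrpl12, -0.38 to 0.16 for Mrps34, -0.63 to 0.00 for Cox6b1, -0.14 to 0.09 for Cox8a, -0.28 to 0.18 for Atp5g1 and -0.16 to 0.29 for Atp5g2. With library totals Sdhb was at -0.24 and Atp5g2 at -0.21. Atp5g3 and Atp5g1 were at 0.01 and 0.00 with DESeq2 size factors and by DESeq2, and at 0.02 and 0.01 without the filter.

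Replicate numbers did not pair the libraries: same-numbered libraries had deviations that correlated at -0.06, -0.24 and -0.45. With the replicate block 0 members and 633 genes in all were called, Sdhb was at -0.06 and Atp5g2 at -0.01, and Timm8b did not pass (edgeR adjusted p = 0.0869), nor did Rps15a (0.0534). Timm8b also did not pass with DESeq2 size factors, library totals or unstranded counts (edgeR adjusted p = 0.0518, 0.0678 and 0.0602). Rps24 and Rps15a did not pass with library totals (edgeR adjusted p = 0.066 and 0.0568). Precision is limited by 3 libraries a group, with 21032878 to 40377742 counts each.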

Other observations

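Several members lie head to head with a gene of another function, with starts on opposite strands at most 250 bases apart in GENCODE M21. Of the tested members 41 had such a tested neighbour outside the list. The members' median log2 fold change was -0.17, with 27 of 41 negative, and the neighbours' was 0.12, with 17 of 41 negative. In 24 of the 41 pairs the signs were opposite. These pairs were collected after the data were seen, and the difference was not tested.

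Sdhd and Timm8b start 98 bases apart, and the 60 bases printed for Sdhd lie between them. Sdhd had a log2 fold change of 0.36 and Timm8b of -0.89, a difference of 1.25. Sdha starts 29 bases from Ccdc127, which was at 23.2, 20.0 and 23.1 CPM in controls and 25.3, 29.2 and 26.3 CPM in knockouts (0.29 ± 0.18, edgeR adjusted p = 0.335). Sdha, at 0.93, had the larger change. Mrpl54, the member with the smallest p, starts 26 bases from Apba3, an adaptor protein gene. Mrpl54 was at -1.10 and Apba3 at 0.23. Ndufs1 at 0.68 stood opposite Eef1b2, a translation elongation factor gene, at -0.68. Of the 41 neighbours edgeR called 0 higher and 1, Timm8b, lower (2.44%, near the 2.37% of all tested genes).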
